A study of Homo sapiens with 2 samples.

Results

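The genes described here encode the nuclear pore complex and the carriers that move proteins through it. They comprise 43 genes, and all 43 were named on the array out of 19775 genes named in all. Members were taken by symbol, current or older, from every probe set that the array annotation gives to 1 gene only, which yielded 129 of the 54675 probe sets. Total RNA of Calu-3 cells, a human lung adenocarcinoma line widely used as a model of airway epithelium, was hybridised to Affymetrix arrays. The stretched group was a culture on flexible plates coated with collagen I and stretched cyclically over 18 h, with a maximum of 20%, a minimum of 0.7% and phases of 2 s on and 2 s off in sine form. The non-stretched group was a culture of the same line at the same 18 h without stretch. Cultures had reached about 80% confluence per the labels' protocols, in medium with 10% serum, whereas the design text calls them confluent. Each group is 1 culture on 1 array, so there is no replicate, no SD between cultures and no test between the conditions, and every difference below compares these 2 arrays.

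The nuclear pore complex is a ring-shaped channel built from many copies of its proteins, the nucleoporins, and set into the nuclear envelope. Its scaffold is made of an outer Y-shaped complex, an inner ring and proteins that cross the membrane. Nucleoporins with phenylalanine-glycine (FG) repeats fill the channel and bind passing carriers. Importins carry proteins with a nuclear localisation signal inward, exportins carry proteins with an export signal outward, and the small GTPase Ran, charged with GTP inside the nucleus by RCC1, releases import cargo and loads export cargo. New pores are built as a cell passes through interphase, and several of these proteins also act on the mitotic spindle or at the kinetochore.

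Most members were higher in the stretched array, and the size differed by subgroup. Differences are log2 signal in the stretched minus log2 signal in the non-stretched array, from the probe set of each gene with the highest mean signal. Signals under the median of an array were set to that median (28.7 and 28.4 intensity units), called the floor, and a gene above it in at least 1 array was called measured. All 43 members were measured, 42 of them in both arrays, while POM121 passed the floor only in the stretched one and so could not come out lower. Of the 43, 41 lay above 0 and 2 below, against 50.5% of the 13453 measured genes above 0. A difference of 2-fold or more upward was seen in 12 members (27.9%), where the share of all measured genes was 7.78%. No member was 2-fold lower, where the share of all measured genes was 7.49%. At least 1.5-fold higher were 25 members (58.1%), against 17.9% of all measured genes, and none was 1.5-fold lower, against 16.7%. The median difference of the members was 0.68 on the log2 scale (1.60-fold), and that of all measured genes was 0.01. Among the 7416 genes above the 75th percentile of both arrays, 5.53% were at least 2-fold higher. With the floor at that level, 39 of the 43 members passed it in at least 1 array, a wider condition. Of those 39, 10 were at least 2-fold higher.

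**Figure D1:**
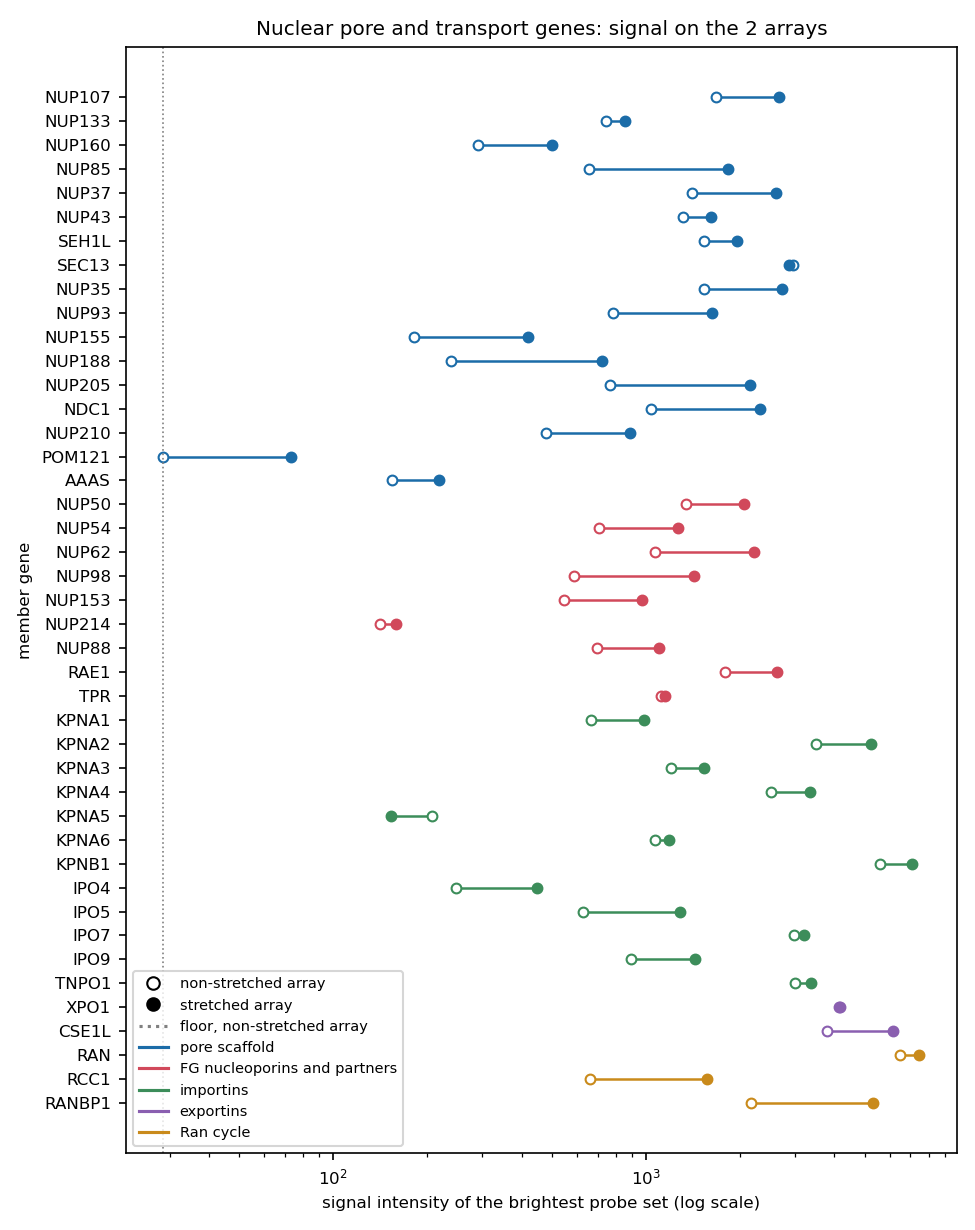
Signal intensity (log axis) of each member's brightest probe set in the non-stretched (open circles) and stretched array (filled circles), 1 array each, coloured by subgroup. Filled circles lie to the right of open ones for 41 of the 43 genes, and the lines are longest for NUP188, NUP205 and NUP85; KPNA5 and SEC13 run the other way.

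The spread of a single probe set sets the scale of what can be read from these values. It was taken from 5818 genes that had several probe sets over the floor on each array, and the SD of 1 probe set's log2 difference was 0.36, which covers probe noise and isoforms but no variation between cultures. By that measure 29 members lay more than 1 SD above 0, 1 member (KPNA5) lay more than 1 SD below 0 and 13 lay within it. The share of all measured genes past this cut was not counted, so these counts carry no comparison. The 2 arrays carry a scaling uncertainty of about 0.11 on the log2 scale. The 18 hybridisation spike-in probe sets, added in equal amounts to each sample, had a median difference of -0.11, whereas the arrays' 75th percentiles differed by 0.11 in the other direction. The controls ACTB and GAPDH differed by 0.08 and 0.11. IPO5, NUP62 and NUP93, at 1.03, 1.04 and 1.06, lay closer than that to the 2-fold line. They dropped under it when the arrays were centred on their 75th percentiles. With that centring 9 members were 2-fold higher, and the matching share of all measured genes is not given here. The suffixes _x_at and _s_at are given to probe sets that may bind more than 1 transcript. With all of these dropped, 32 members could be read. Of them 5 were 2-fold higher, against 8.62% of all measured genes under the same choice. In a culture, more cells of a kind and more RNA per cell cannot be told apart.

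Both cultures carried epithelial markers, the 6 genes EPCAM, CDH1, KRT7, KRT8, KRT18 and KRT19, whose signals ran from 5482 to 10324 without stretch and from 4933 to 12028 with stretch. The 2 genes read as markers of the Calu-3 line went down instead. The chloride channel CFTR went from 5924 to 2199 (2.69-fold lower) and the mucin MUC1 from 2093 to 767 (2.73-fold lower). The other measured probe sets of CFTR and MUC1 were lower too, by 1.32 to 1.98 on the log2 scale. Of 10 markers of fibroblasts, leukocytes and endothelium, 5 were at the floor in both arrays, namely PTPRC, PDGFRB, COL3A1, VWF and CDH5. By the probe set with the highest mean of each gene, the signals of the rest reached 126 without and 105 with stretch, in COL1A1. In 2 further probe sets COL1A1 went from 174 to 30.4 and from 149 to the floor. By the same probe sets the summed signals of the 10 markers were 480 without and 423 with stretch. The 6 cell cycle genes PCNA, MCM2, MCM6, CCNB1, TOP2A and MKI67, picked with earlier results of these data known, were 2.16-fold to 4.84-fold higher in the stretched array. The part of CFTR, MUC1 and the cell cycle genes in the differences of the pore and transport genes was not tested.

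**Figure D2:**
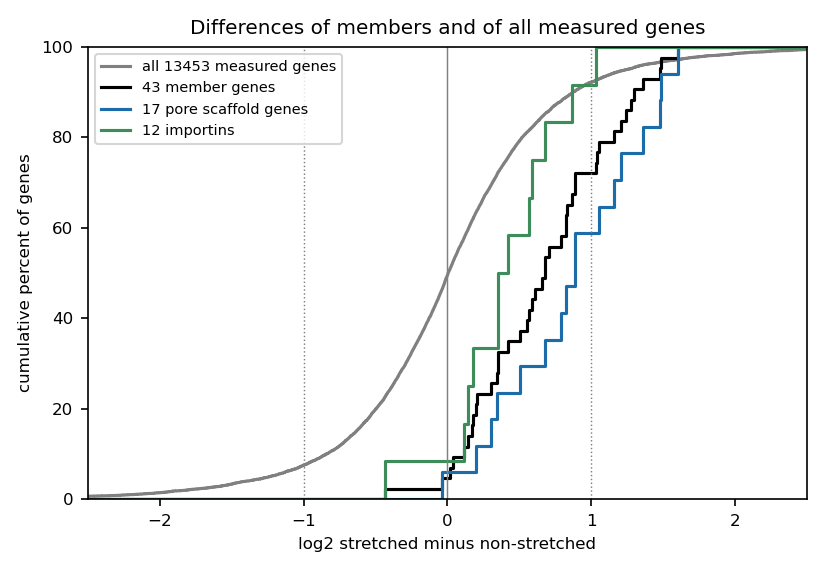
Cumulative percent of genes (vertical axis) at or below each log2 difference (horizontal axis) for the 43 members, the 17 pore scaffold genes, the 12 importins and all 13453 measured genes; dotted lines mark 2-fold. The curve of all genes crosses 50% near 0, that of the members near 0.68 and that of the scaffold near 0.89, while the importins cross near 0.39.

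The promoters of the members were read to see what they share in sequence. RefSeq entries of build GRCh38.p14 were found for 38 of the 43 members, and the 250 bases before each listed start were searched on both strands for 4 short motifs. These were the E2F core (spelled TTCCCGC or TTCGCGC or TTGCCGC or TTGGCGC), the E-box CACGTG to which MYC and related factors bind, the cell cycle homology region TTTGAA (CHR) of many mitotic genes, and CCAAT, the box bound by NF-Y. None of these motifs contains another. A CHR stood before 9 of the 38 members (23.7%), against 12.3% of the 10916 measured genes with an entry, and before 4 of the 11 members with at least a 2-fold difference and 5 of the other 27. A CHR and a CCAAT box stood in the same window of 6 members, KPNA2, NUP35, NUP37, NUP93, NUP98 and NUP205 (15.8%), against 4.95% of the measured genes. An E2F core stood before 12 members (31.6%), against 20.4%, but before 3 of the 11 with at least a 2-fold difference and 9 of the other 27. An E-box stood before 8 members (21.1%), against 10.9%, and CCAAT before 16 (42.1%), against 41.5%. These are matches of letters, not binding sites.

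The windows of NUP188, NUP205, NUP98, NUP35 and XPO1, chosen after their values and matches were seen, are shown 5′ to 3′ on the strand of the gene, with every match to a motif in capitals. NUP188 (chr9:128947449-128947698, plus strand) was the member with the largest difference, and its window holds an E2F core and 2 E-boxes, the nearer E-box beginning 30 bases before the start. NUP205 (chr7:135557667-135557916, plus strand) and NUP98 (chr11:3797547-3797796, minus strand) were also at least 2-fold higher, and each has a CHR followed by CCAAT. NUP35 (chr2:183124193-183124442, plus strand) has its CHR 35 bases before the start. XPO1 (chr2:61538357-61538606, minus strand) did not differ between the arrays and has 2 CCAAT boxes and no CHR in this window. Its other listed window holds an E-box. These windows do not stand for all members. IPO7, at 0.11, also has a CHR, while NUP85, NUP155 and NUP62, each at least 2-fold higher, have no match to any of the motifs.
NUP188: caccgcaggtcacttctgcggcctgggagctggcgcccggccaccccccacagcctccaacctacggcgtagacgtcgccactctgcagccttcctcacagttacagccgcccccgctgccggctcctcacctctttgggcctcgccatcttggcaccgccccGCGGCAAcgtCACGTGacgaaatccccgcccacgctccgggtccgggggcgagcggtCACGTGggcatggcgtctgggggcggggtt
NUP205: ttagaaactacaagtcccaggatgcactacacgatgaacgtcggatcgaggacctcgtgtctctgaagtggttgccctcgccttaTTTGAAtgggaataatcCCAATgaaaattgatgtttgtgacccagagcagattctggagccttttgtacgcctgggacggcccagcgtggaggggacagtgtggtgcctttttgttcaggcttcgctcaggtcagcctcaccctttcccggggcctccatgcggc
NUP98: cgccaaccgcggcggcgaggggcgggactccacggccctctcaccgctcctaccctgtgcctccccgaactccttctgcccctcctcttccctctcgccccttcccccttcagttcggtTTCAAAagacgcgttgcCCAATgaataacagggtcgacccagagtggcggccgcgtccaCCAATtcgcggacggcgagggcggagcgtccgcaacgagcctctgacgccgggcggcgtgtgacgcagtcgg
NUP35: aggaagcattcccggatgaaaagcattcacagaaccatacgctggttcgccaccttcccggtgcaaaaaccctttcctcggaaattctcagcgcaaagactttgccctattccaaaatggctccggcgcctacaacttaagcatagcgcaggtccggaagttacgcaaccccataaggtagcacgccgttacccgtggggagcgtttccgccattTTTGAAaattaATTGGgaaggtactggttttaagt
XPO1: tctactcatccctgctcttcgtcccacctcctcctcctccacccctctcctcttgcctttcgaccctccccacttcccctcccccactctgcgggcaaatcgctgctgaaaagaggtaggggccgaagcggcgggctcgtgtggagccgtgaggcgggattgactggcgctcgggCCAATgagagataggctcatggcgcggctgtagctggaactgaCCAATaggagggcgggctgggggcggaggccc

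The pore scaffold held the largest share of strong differences among the subgroups with more than 3 genes. Of its 17 genes, 16 lay above 0, with a median of 0.89 (1.85-fold) and a range from -0.04 to 1.60. In the scaffold 12 genes were at least 1.5-fold higher (70.6%, against 17.9% of all measured genes). At least 2-fold higher were 7 (41.2%, against 7.78%). Within it the inner ring stood highest. All 5 inner ring genes passed 1.5-fold and 4 of them passed 2-fold (80%, against 7.78% of all measured genes). Their median was 1.21 (2.31-fold).

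NUP188 and NUP205 are large, related subunits that bridge the inner ring. NUP188 went from a signal of 239 in the non-stretched to 725 in the stretched array, 3.04-fold higher, by its only measured probe set. NUP205 went from 769 to 2147, 2.79-fold higher, and its second probe set gave the same fold from 335 to 935. NUP188 and NUP205 were thus close in fold. NUP155, which links the ring to the membrane, went from 182 to 419 (2.31-fold). NUP93, the linker to which NUP188, NUP205 and the channel nucleoporins attach, went from 784 to 1630 (2.08-fold). NUP35, a membrane-binding subunit also called NUP53, went from 1531 to 2714, a difference of 0.83. NUP93, NUP155 and NUP35 each rested on 1 measured probe set, that of NUP155 ending in _s_at.

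The Y complex, which forms the outer rings and is needed to build new pores, was split. Its 8 genes had a median of 0.51 (1.43-fold). Of these, 1 was at least 2-fold higher (12.5%, near the 7.78% of all measured genes). At least 1.5-fold higher were 4 (50%, against 17.9%). NUP85 went from 659 to 1834, 2.78-fold higher. NUP37 went from 1403 to 2599 (0.89 on the log2 scale), and its dimmer probe set differed by 1.63. NUP160 went from 290 to 501 (0.79), and 2 dimmer probe sets differed by 1.99 and by at least 1.61. NUP107 went from 1668 to 2663 (0.68). These 4 genes lay above NUP43, NUP133, SEH1L and SEC13, whose differences in the brightest probe set were 0.30, 0.20, 0.35 and -0.04, each under the SD of 1 probe set. SEH1L was not uniform, since its second probe set went from 570 to 1136 (0.99). SEC13, which also coats vesicles that leave the endoplasmic reticulum, read 2952 and 2871.

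The membrane ring anchors the pore in the envelope. NDC1, a protein that spans the membrane, went from 1036 to 2314 (2.23-fold), and its second probe set from 272 to 757 (2.78-fold). NUP210, whose bulk lies in the lumen of the envelope, went from 481 to 888. The 4 of its probe sets that both arrays measured differed by 0.86 to 0.91, and a dimmer one, at the floor without stretch, by at least 0.43. AAAS, the protein ALADIN that NDC1 holds at the pore, went from 154 to 219 (0.50). POM121 was at the floor in the non-stretched array and at 73.6 in the stretched array, at least 2.57-fold higher by this probe set. A brighter probe set that the annotation lists for POM121 and its near-identical copy POM121C together went from 1274 to 1637, a difference of 0.36, so the 2-fold call for POM121 rests on a dim probe set.

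**Figure D3:**
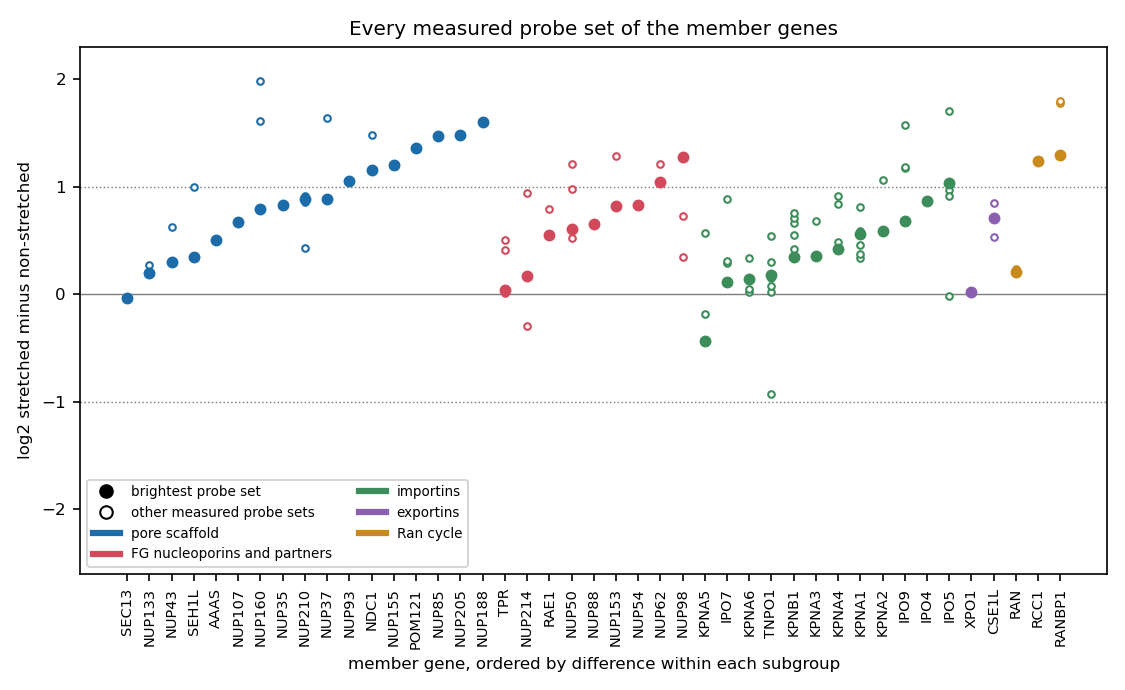
Log2 difference (vertical axis) of every measured probe set of each member, ordered within subgroups; filled circles are the brightest probe set of the gene, open circles the others, and dotted lines mark 2-fold. POM121 and 6 open circles have a value at the floor and are bounds. Of 113 points 107 lie above 0, and the points of NUP205 and RCC1 nearly coincide while those of NUP160, IPO5 and TNPO1 are spread.

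Among the FG nucleoporins, which line the channel and its faces, all 6 lay above 0, with a median of 0.83 (1.78-fold). NUP98, which holds mRNA export factors at both faces of the pore, went from 589 to 1427 (2.42-fold) in its brightest probe set. Its other probe sets differed by 0.73 and 0.34, so NUP98 was not 2-fold higher in all of them. NUP62, the core of the central channel, went from 1071 to 2206 (2.06-fold), and a second probe set went from 276 to 638 (2.31-fold). NUP54, a partner of NUP62, went from 710 to 1264 (0.83). On the nuclear side, the basket protein NUP153 went from 549 to 972 (0.82) and NUP50, which helps release import cargo, from 1347 to 2050 (0.61), with the NUP50 probe sets between 0.52 and 1.21. NUP214, on the cytoplasmic filaments, read 142 and 159 in its brightest probe set, while the dimmer ones differed by 0.94 and -0.30, so its direction depended on the probe set.

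The 3 partners without FG repeats had a median of 0.55. None was 2-fold higher, where the share of all measured genes was 7.78%, so few would be awaited among 3 genes. NUP88, which binds NUP214, went from 698 to 1098 (0.65), and the mRNA export factor RAE1, which binds NUP98, from 1785 to 2621 (0.55). TPR, the coiled-coil protein that forms the nuclear basket, read 1119 and 1149 in its brightest probe set and 552 and 556 in the next. Its 2 dim probe sets differed by 0.41 and 0.50. TPR thus lay within the SD of 1 probe set by its brighter pair.

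The importins differed less. Of 12 genes 11 lay above 0, against 50.5% of all measured genes, with a median of 0.39 (1.31-fold). At least 1.5-fold higher were 4 (33.3%, against 17.9% of all measured genes). At least 2-fold higher was 1 (8.33%, near the 7.78% of all measured genes). Importin alpha proteins are adaptors that read the classical localisation signal. KPNA2, an adaptor linked to cell division, went from 3494 to 5254 (0.59), and its second probe set from 2269 to 4748 (2.09-fold). KPNA1 differed by 0.56, with all 6 probe sets between 0.34 and 0.81. KPNA4 differed by 0.42 and KPNA3 by 0.35. KPNA6 read 1069 and 1180 (0.14). KPNA5 was the member furthest below 0, going from 207 to 153 (-0.44), with a second probe set at -0.18 and another, at the floor without stretch, at 0.57. KPNA5 and KPNA6 thus stood apart from KPNA1 and KPNA2 by their brightest probe sets.

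KPNB1, importin beta, pairs with these adaptors and docks them at the pore. It went from 5575 to 7095 (0.35), and all 6 of its probe sets lay above 0, up to 0.76. Of the carriers that bind cargo directly, IPO5, an importer of ribosomal proteins and histones, went from 627 to 1284 (2.05-fold), and 3 dimmer probe sets lay at 0.91, 0.97 and 1.70, while its dimmest, at the floor without stretch, read 28.4 with stretch, so its difference of -0.02 only reflects the 2 floors. IPO4 went from 246 to 450 (0.87) by 1 probe set. IPO9, an importer of histones and actin, went from 895 to 1433 (0.68), with dimmer probe sets at 1.57, 1.18 and at least 1.18. IPO7 read 2968 and 3208 (0.11), with other probe sets from 0.29 to 0.89. TNPO1, transportin, which imports RNA-binding proteins, read 2988 and 3373 (0.17). Of its 9 measured probe sets 8 lay between 0.02 and 0.54, and a dim one lay at -0.93.

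The 2 exportins differed from each other. XPO1 (CRM1), the main carrier of proteins with leucine-rich export signals, read 4126 and 4182, a difference of 0.02, and its second probe set gave the same. CSE1L, which returns importin alpha to the cytoplasm, went from 3776 to 6172 (1.63-fold), with its other probe sets at 0.53 and 0.85. The 3 CSE1L values thus all exceeded the SD of 1 probe set and those of XPO1 did not.

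In the Ran cycle the GTPase and its regulators were apart. RAN read 6478 and 7466 (0.20), and its second probe set differed by 0.23. RCC1, the chromatin-bound exchange factor that charges Ran, went from 661 to 1564 (2.37-fold), and its second probe set from 484 to 1140 (2.35-fold). RANBP1, which helps Ran hydrolyse GTP in the cytoplasm, went from 2168 to 5324 (2.46-fold), with dimmer probe sets at 3.42-fold and 3.48-fold. All 5 probe sets of RCC1 and RANBP1 end in _s_at or _x_at, and with such probe sets left out RAN alone remained, at 0.23.

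Across all probe sets the picture was much the same as by the brightest. Of 129 member probe sets 113 were measured, 107 of them above 0 and 6 below. Of the 113, 7 were at the floor in the non-stretched array and measured only through the stretched one. Their sign was in effect fixed in advance, and the dimmest of IPO5 was counted below only because the 2 floors differ. Probe sets of this kind from POM121, NUP160 and IPO9 are among the 2-fold ones counted next. At least 2-fold higher were 28 (24.8%), against 8.66% of the 24977 measured probe sets of all named genes, and none was 2-fold lower, against 6.48%. Of the 31 members with 2 or more measured probe sets, 27 had every one above 0, and NUP214, KPNA5, IPO5 and TNPO1 had at least 1 below. In NUP62, NUP205, NDC1, RCC1 and RANBP1 every measured probe set was at least 2-fold higher. The shares of all genes that meet these 2 conditions were not counted. Of the 30 members with at least 2 probe sets measured by both arrays, 29 had the 2 brightest above 0, against 2515 of 5818 genes. In 20 of 30 members with at least 2 probe sets measured by both arrays, the second brightest gave the higher difference (66.7%), against 59.1% of the 5818 genes of that kind.

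Genes of the same pathway outside the list were read in 3 sets, the rest of the pore and carrier families, the mRNA export machinery and the nuclear envelope. Of 20 further pore, carrier and Ran genes 17 were measured, and 14 of these lay above 0. A 2-fold difference was seen upward in 3 (17.6%) and downward in 1, where the shares of all measured genes were 7.78% and 7.49%, with a median of 0.44 (1.35-fold). NUP58, a further protein of the NUP62 channel complex, went from 115 to 296 (2.57-fold), with other probe sets at 0.78 and, from the floor, at least 0.90. NUP42, on the cytoplasmic face, went from 172 to 378 (2.19-fold), and TNPO2, a close relative of TNPO1, from 313 to 628 (2.01-fold), with probe sets up to 1.43. XPOT, the exportin for transfer RNA, ran the other way from 3140 to 1549 (2.03-fold lower), and its second probe set from 1312 to 767 (-0.78). XPOT was thus the carrier furthest below 0 among the measured members and further transport genes.

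Of 20 mRNA export genes 17 were measured, 15 of them above 0 and 3 (17.6%) by at least 2-fold, against 7.78% of all measured genes, with a median of 0.49 (1.41-fold). DDX39A, an RNA helicase that loads export factors, went from 469 to 1771 (3.78-fold), by 1 probe set ending in _s_at. NXT1, the small subunit of the mRNA export receptor, went from 275 to 767 (2.79-fold) by 1 probe set. ALYREF, an adaptor for that receptor, went from 1916 to 4683 (2.44-fold), and its second probe set from 1638 to 3273, just under 2-fold. None of the 17 was at least 2-fold lower, and at the share of all measured genes, 7.49%, a set of this size would hold about 1.

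Of 15 nuclear envelope genes, all measured, 11 lay above 0 and 4 below, 4 by at least 2-fold upward and 1 by at least 2-fold downward, against 7.78% and 7.49% of all measured genes, with a median of 0.38 (1.30-fold). The lamins, which form the meshwork under the envelope, were all higher. LMNA went from 1348 to 3139 (2.33-fold), LMNB1 from 1016 to 2064 (2.03-fold) and LMNB2 from 396 to 848 (2.14-fold). The proteins that couple the lamina to the cytoskeleton, known as the LINC complex, were split. SYNE1 went from 83.1 to 207 (2.49-fold), with another probe set at 0.37, whereas SUN2 went from 515 to 237 (2.17-fold lower) by 1 probe set. SYNE2, named after its value was seen, went from 920 to 475 (-0.95), with dim probe sets at 0.46 and, from the floor, at least 0.13. SUN1, named likewise, differed by 0.30, with dim probe sets at 1.40 and, from the floor, at least 0.07.

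**Figure D4:**
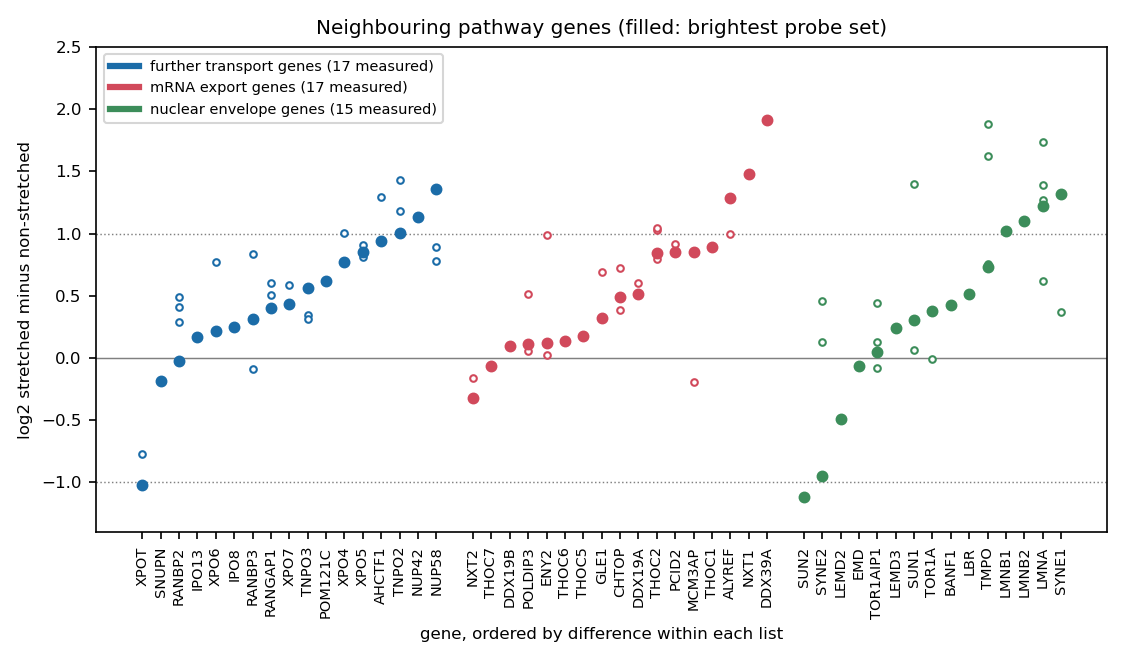
Log2 difference (vertical axis) of 49 measured genes in 3 neighbouring sets, ordered within each set; filled circles are the brightest probe set, open circles the others, and dotted lines mark 2-fold. The sets centre at 0.44, 0.49 and 0.38, with XPOT and SUN2 below the lower dotted line.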

How the data were processed

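Per the labels' protocols, 6 µg of total RNA was made into biotin-labelled cRNA for Affymetrix arrays. The table the authors deposited holds linear intensity values, from 0.66 to 17518. How probes were summarised and scaled, and with which software, is not given in the sources used here. The number of arrays, 1 per group, limits the precision. Of the 54613 probe sets that are not controls, the platform annotation, updated through RefSeq, named 41037 by a current and 54 by an older symbol of 1 gene. It listed several genes for 1801 and none for 11721, and these entered no count. Values were floored at the 50th percentile of each array and compared as log2 differences with no test, where 2-fold is 1. Any member could be named. In the 3 neighbouring sets, genes at least 2-fold different and the 2 furthest from 0 were named. Members and lists were chosen with earlier results of these data known. Scripts (Python 3.11.15, pandas 2.3.3, statsmodels 0.14.6) were tested on simulated arrays. A total of 8 alternatives changed the floor, the scaling or the probe sets used. Protein sequences were not analysed here.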

Additional observations from a re-analysis of the deposited data

How the results depend on the processing

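No paired analysis was possible because each group is 1 array and the differences come from no test. The members' median stayed above 0 under all 8 alternatives, and no member that was 2-fold higher changed sign. Apart from dropping _x_at and _s_at probe sets, the alternatives left 9 to 14 members 2-fold higher and 0 lower. The matching shares of all measured genes are not given here, so these counts carry no comparison. The median came to 0.57 after centring on 75th percentiles, 0.61 after quantile normalisation, 0.61 with the loess trend removed, 0.79 with the arrays centred on the spike-ins and 0.78 with probe sets averaged. Centring on the 75th percentile and on the spike-ins moved the median of all measured genes to -0.10 and 0.12, so both shift members and other genes alike. In the same order, the pore scaffold's median was 0.78, 0.79, 0.80, 0.9995 and 1.06 on the log2 scale. The importins' median was 0.28 with the 75th percentile, 0.50 with spike-ins, 0.55 averaged and 0.51 once _x_at and _s_at probe sets were dropped. That of the FG nucleoporins and partners was 0.78 averaged. For the further transport, mRNA export and nuclear envelope genes the medians were 0.33, 0.38 and 0.27 with the 75th percentile and 0.55, 0.61 and 0.49 with spike-ins. When _x_at and _s_at probe sets were dropped, 32 members were left, 5 of them at least 2-fold higher. The Ran cycle then kept RAN alone at 0.23. Fewer genes could be counted, but IPO5 was still read and fell under 2-fold by value, at 0.97. NUP85, NUP188, NUP205, NDC1, RCC1 and RANBP1 were at least 2-fold higher in every alternative that measured them. POM121 stayed between 1.25 and 1.57, but this is a weak check. Its dim probe set lay at the floor without stretch, and the higher floor left POM121 unmeasured. The brighter probe set shared with POM121C, at 0.36, entered no count. IPO5, NUP62 and NUP93 fell under 2-fold to as little as 0.92, 0.94 and 0.95. NUP155 fell to 0.86 with the higher floor, which is a bound, and NUP98 to 0.78 averaged.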

Other observations

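Probe sets that the annotation lists for several genes entered no count. Among those with signal in both arrays, a probe set shared by NUTF2, the carrier that returns Ran to the nucleus, and its copy NUTF2P4 went from 4688 to 5202 (0.15 on the log2 scale), and a dimmer one from 434 to 1014 (1.23). The probe sets shared by IPO11 and a read-through transcript went from 539 to 866 (0.68) and from 555 to 808 (0.54). DDX39B, the close relative of DDX39A, went from 2398 to 4072 (0.76) in a probe set it shares with neighbouring transcripts, and THOC3, a subunit of the THO complex, from 1888 to 3007 (0.67) in one shared with LOC728554.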
